A study of Mus musculus with 8 samples.

Results

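The effect of MSDC on unstimulated alveolar macrophages was read from 4 of the 8 bulk RNA-seq samples of the series, 2 treated with MSDC and 2 with vehicle, and described over all 11621 genes that passed the filter on low counts, out of 15521 in the deposited table. Alveolar macrophages are the resident phagocytes of the lung airspaces. The MSDC group held mouse lung cells that had been collected by bronchoalveolar lavage, kept after 2 h of adherence, cultured with GM-CSF at 10 ng/ml and given MSDC at 10 µM. The vehicle group held the same kind of culture, also with GM-CSF, given DMSO in place of MSDC. Each treatment was added for 2 h and was followed by 24 h without Poly(I:C), per the sample protocols, whereas the series description calls the stimulation overnight. The other 4 samples received the same treatments followed by Poly(I:C), a synthetic double-stranded RNA, at 5 µg/mL, and they enter only the last comparison. The strain field repeats the treatment in place of a mouse strain, and age and sex were not used here. Whether replicates were separate mice or cultures is not stated, and the spread behind each p-value, which is that between libraries, may be technical.

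MSDC is the prefix of a set of code-named compounds known to bind the mitochondrial pyruvate carrier, and which of them was used is not stated. The carrier is made of the MPC1 and MPC2 proteins, sits in the inner mitochondrial membrane and brings pyruvate, the end product of glycolysis, to the matrix, where pyruvate dehydrogenase turns it into acetyl-CoA. Alveolar macrophages take up and break down surfactant lipid, and their lipid genes are governed in large part by PPARγ, a nuclear receptor that GM-CSF induces during their development. PPARγ and its relatives PPARα and PPARδ pair with RXR and act on genes of fatty acid uptake, droplet storage and oxidation.

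The 4 libraries held 28762425 to 29493223 counts, and 3 counts, taken as the floor, equal 0.102 to 0.104 CPM (counts scaled to library size with TMM), which covers counting error only. All 33 genes of an alveolar macrophage identity list had a mean above 5 CPM in vehicle, and they summed to 43590 and 42907 CPM with MSDC, against 44001 and 41548 CPM with vehicle. Summed markers of other cells were low and lower with MSDC. In vehicle, 3 dendritic cell markers had a mean above 5 CPM, and each other list had 1 or 0 such members. Cdh1 made up most of the epithelial sum, at 61.3 and 53.8 CPM with MSDC, against 73.99 and 70.04 CPM with vehicle. Of 4 neutrophil markers tested 1 was called higher and 1 lower. Neutrophil markers (7 in the table) summed to 12.4 and 17.1 CPM with MSDC, against 40.9 and 37.7 CPM with vehicle, and Ngp was at 0 in all 4 libraries. Monocyte and interstitial macrophage markers (11) summed to 5.78 and 6.45 CPM with MSDC, against 12.6 and 11.4 CPM with vehicle, with Ly6c2 at 0. Dendritic cell markers (9) summed to 17.7 and 20.1 CPM with MSDC, against 57.0 and 48.0 CPM with vehicle. T and NK cell markers (9, with Cd3e, Cd8b1 and Nkg7 at 0) summed to 26.1 and 25.7 CPM with MSDC and 42.4 and 38.7 CPM with vehicle. The B cell sum (8 markers, Blk at 0) did not exceed 1.09 CPM in any of the 4 libraries. Epithelial markers (11, Sftpa1 at 0) summed to 66.1 and 58.7 CPM with MSDC and 80.7 and 75.7 CPM with vehicle, fibroblast and endothelial markers (10) to 141 and 138 CPM with MSDC and 195 and 195 CPM with vehicle, and mast cell, basophil and eosinophil markers (4, Ccr3 at 0) to 4.47 and 3.72 CPM with MSDC and 9.75 and 9.71 CPM with vehicle. The part of these other cells in the results that follow was not tested. In bulk samples, fewer cells of a type and less RNA per cell cannot be told apart.

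MSDC changed 2733 of the 11621 genes at an adjusted p under 0.05 (edgeR's quasi-likelihood test, Benjamini-Hochberg over all genes, two-sided), which is 23.5%. Of these, 1293 rose (11.1% of the genes tested) and 1440 fell (12.4%). Most changes were small, with a median absolute log2 fold change of 0.52 among called genes, while 258 rose (2.22%) and 377 fell (3.24%) at least 2-fold. The median of all genes tested was at 0 on the log2 scale to 2 decimals. In 2730 of the 2733 called genes, both MSDC libraries lay on the same side of both vehicle libraries, and that is meant below wherever a gene is said to have risen or fallen and its libraries are not described. The same separation held for 57.0% of all genes tested. Leaving out an MSDC library took the number of rises to 819 without replicate 1 and to 822 without replicate 2, and the number of falls to 1068 and 1016.

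**Figure D1:**
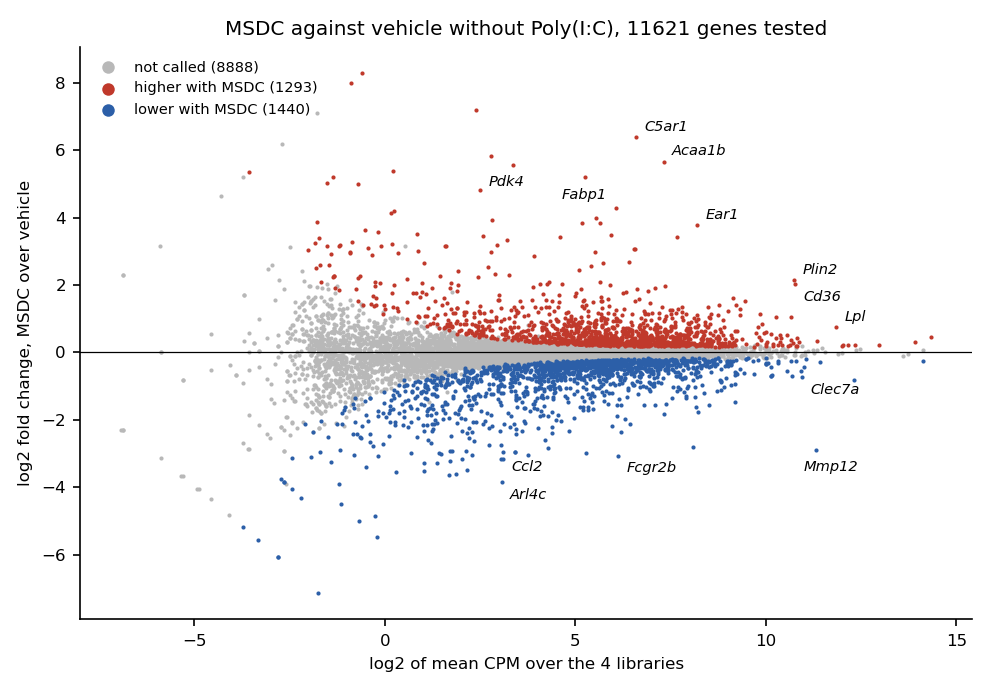
Mean level of each gene over the 4 libraries (log2 CPM, x) against its log2 fold change of MSDC over vehicle (y), with genes that rose in red, genes that fell in blue and genes not called in grey. The 1293 rises include C5ar1 at 6.38, and the falls include the abundant Mmp12 at -2.89; 11 tested genes at 0 in all 4 libraries are not drawn.

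Genes that bring fatty acids into the cell rose. Of 18 tested genes of fatty acid uptake and binding, 11 rose and none fell (median log2 fold change 0.62; at an unadjusted p under 0.05 the counts were also 11 and 0, and DESeq2 and limma gave 11 and 0). Cd36, the membrane receptor for long-chain fatty acids and oxidised lipoproteins, had 2838 and 2728 CPM with MSDC, against 717 and 646 CPM with vehicle. That is a log2 fold change of 2.03 ± 0.06 (SE), adjusted p = 2.72e-12. Lpl, the lipase that frees fatty acids from lipoprotein triglyceride, was already among the abundant transcripts, at 4748 and 4470.01 CPM with MSDC, against 2899.6 and 2578 CPM with vehicle, and rose by 0.75 on the log2 scale. Angptl4, a secreted inhibitor of that lipase, had 175 and 165 CPM with MSDC, against 19.3 and 21.5 CPM with vehicle (log2 fold change 3.06 ± 0.08 (SE), adjusted p = 1.88e-13).

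The cytosolic fatty acid binding proteins rose by unequal amounts. Fabp1, best known as the liver form and also found in alveolar macrophages, had 127 and 129 CPM with MSDC, against 4.45 and 8.52 CPM with vehicle. The MSDC libraries were close together, and the vehicle libraries were further apart in relative terms (log2 fold change 4.29 ± 0.20 (SE), adjusted p = 2.67e-10). Fabp4, the adipocyte and macrophage form, had 618 and 659 CPM with MSDC, against 224 and 255 CPM with vehicle. Fabp5 had 1512 and 1575 CPM with MSDC, against 1088 and 1196 CPM with vehicle, for log2 fold changes of 1.42 and 0.43. The fatty acid transporter Slc27a1 (1.52), the acyl-CoA synthetase Acsl1 (1.16) and the acyl-CoA binding protein Dbi (0.98) also rose, while the synthetases Acsl4 and Acsl5 did not pass the test, at log2 fold changes of 0.00 and -0.07.

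Lipid droplet and triglyceride genes were also higher in many cases. Of 25 tested, 12 rose and 2 fell (median 0.25), with 1 fall without any 1 of the 4 libraries. Plin2, the coat protein of macrophage droplets, had 2818 and 2737 CPM with MSDC, against 598 and 661 CPM with vehicle (log2 fold change 2.14 ± 0.06 (SE), adjusted p = 8.04e-13). Cidec, which fuses droplets, had 112 and 111 CPM with MSDC, against 9.34 and 10.6 CPM with vehicle, a log2 fold change of 3.49. Gpd1, the cytosolic glycerol-3-phosphate dehydrogenase that supplies the glycerol backbone, had 87.8 and 88.7 CPM with MSDC, against 5.504 and 5.58 CPM with vehicle, a log2 fold change of 3.99. Dgat1, which adds the last acyl chain of triglyceride, rose to 83.4 and 78.7 CPM with MSDC, against 18.7 and 18.99 CPM with vehicle. Lipolysis genes rose too. The triglyceride lipase Pnpla2 had 327 and 338 CPM with MSDC, against 142 and 157 CPM with vehicle, and its coactivator Abhd5 (0.67) and the monoglyceride lipase Mgll (0.53) moved in the same direction. Hilpda and G0s2, which inhibit Pnpla2, rose by 1.70 and 1.78 from low levels. Plin3 did not pass the test, at 194 and 183 CPM with MSDC, against 179.5 and 195 CPM with vehicle. The hormone-sensitive lipase Lipe, at 1.69 and 2.06 CPM with MSDC, against 3.19 and 2.94 CPM with vehicle, was called lower but lost that call under DESeq2 and without any 1 of the 4 libraries.

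**Figure D2:**
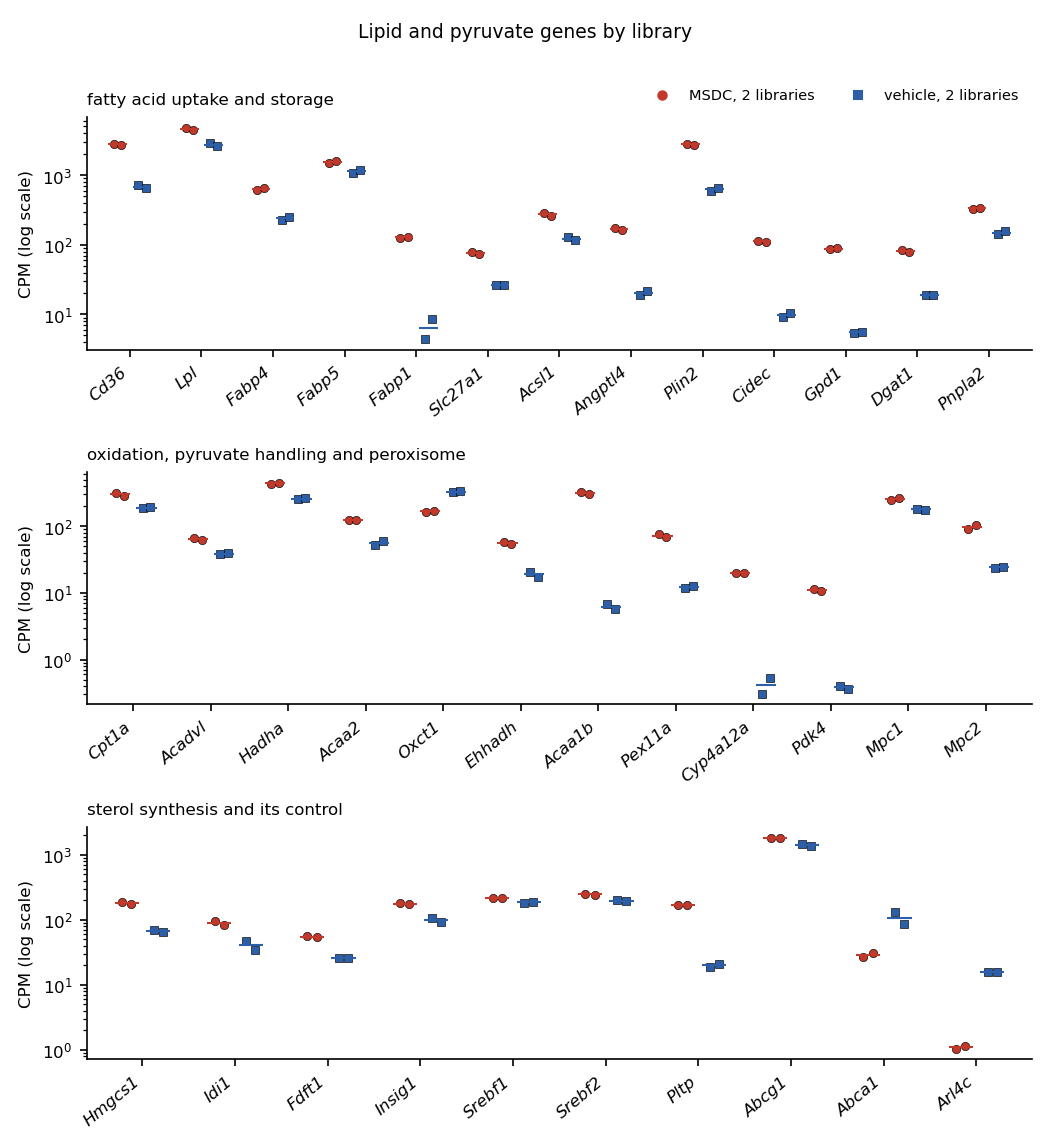
CPM on a log scale for genes of fatty acid uptake and storage (top), oxidation, peroxisome and pyruvate handling (middle) and sterol handling (bottom), with a point for each of the 2 MSDC libraries (red circles, left) and 2 vehicle libraries (blue squares, right) and a line at the mean. In each gene drawn the 2 groups are apart; Oxct1, Abca1 and Arl4c are the genes lower with MSDC.

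Fatty acid oxidation genes rose in both mitochondria and peroxisomes. Of 30 mitochondrial fatty acid oxidation and ketone genes, 18 rose and 3 fell (median 0.34), and of 28 peroxisomal ones 13 rose and 1 fell (median 0.32), with no fall without MSDC replicate 2 or vehicle replicate 2. Cpt1a, the carnitine palmitoyltransferase that controls entry of fatty acids to mitochondria, had 313 and 288 CPM with MSDC, against 190.04 and 191 CPM with vehicle (log2 fold change 0.66 ± 0.06 (SE), adjusted p = 6.44e-07). The carnitine carrier Slc25a20 rose by 0.94, the very-long-chain dehydrogenase Acadvl by 0.74, the trifunctional protein subunit Hadha by 0.76, and the thiolase Acaa2 by 1.13 on the log2 scale. Among genes of ketone metabolism, Oxct1, the enzyme that activates acetoacetate, had 166 and 168 CPM with MSDC, against 325 and 338 CPM with vehicle, a log2 fold change of -0.99, and Bdh1, the hydroxybutyrate dehydrogenase, was at -0.51, while the thiolase Acat1 did not pass the test at -0.03. Acadm, the medium-chain dehydrogenase, did not pass the test at 33.97 and 34.1 CPM with MSDC, against 33.3 and 38.1 CPM with vehicle.

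The peroxisomal thiolase Acaa1b had one of the largest changes in the table, at 322 and 306 CPM with MSDC, against 6.79 and 5.65 CPM with vehicle (log2 fold change 5.66 ± 0.10 (SE), adjusted p = 9.26e-15). Its close copy Acaa1a had 124 and 117 CPM with MSDC, against 82.7 and 90.9 CPM with vehicle, a log2 fold change of 0.47, and reads that the 2 genes share could have been split between them by the counting. Other steps of the peroxisomal pathway rose as well. The bifunctional enzymes were Ehhadh, at 58.5 and 54.7 CPM with MSDC, against 20.7 and 17.4 CPM with vehicle, and Hsd17b4, at 528 and 507 CPM with MSDC, against 202 and 203 CPM with vehicle. Ech1 (1.35), the thioesterase Acot4 (1.81) and the fatty acid transporter Abcd2 (0.98) were also higher. Catalase (Cat, 0.14) and the oxidase Acox3 (0.00) did not pass the test. The share of peroxisome biogenesis genes called, 22.2%, was close to the 23.5% of all genes tested. Of 18 peroxisome biogenesis genes only 4 rose and none fell, among them Pex11a, which promotes peroxisome division, at 75.1 and 69.9 CPM with MSDC, against 11.7 and 12.7 CPM with vehicle, and Pex16 at 1.67 on the log2 scale (none was lower at an unadjusted p under 0.05, by DESeq2 or by limma, and 5 were higher at that unadjusted p).

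Of 8 tested genes of cytochrome P450 family 4, 3 rose, 1 fell and 4 were not called. Cyp4a12a and Cyp4a12b, omega-hydroxylases of the Cyp4a group, were nearly absent in vehicle. Cyp4a12a had 20.1 and 19.8 CPM with MSDC, against 0.306 and 0.528 CPM with vehicle. Cyp4a12b had 10.4 and 10.5 CPM with MSDC, against 0.102 and 0.03302 CPM with vehicle. The vehicle counts of Cyp4a12b were 3 and 1, so the ratio of summed counts, 156, carries a 95% exact counting interval of 60.6 to 575, and without vehicle replicate 1 its log2 fold change was 8.13, against 7.20 with all libraries. Both genes are near-identical neighbours on chromosome 4, 78808 bases apart with no other coding gene between them, and their reads may not be separable. Cyp4f18 fell, at 2.82 and 1.82 CPM with MSDC, against 11.1 and 10.9 CPM with vehicle, and Cyp4f16 rose by 0.73.

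Fabp1 is shown with the 150 bases before its start because it is among the 20 largest rises and holds a direct repeat of a nuclear receptor motif, the kind of element that PPAR and RXR dimers bind. The letters searched were AGGNCANAGGNCA on either strand, in RefSeq promoters of GRCm38.p6 that run from 250 bases before to 50 bases after each start. The stretch lies at chr6:71199729-71199878 on the plus strand, upstream of the first exon, and the match, on the other strand, is in capitals.
Fabp1: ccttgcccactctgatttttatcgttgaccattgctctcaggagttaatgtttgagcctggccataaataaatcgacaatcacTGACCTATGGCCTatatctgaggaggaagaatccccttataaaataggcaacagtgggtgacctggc
The same letters were in 27 of the 9379 tested genes with a promoter in the table (0.288%), in 3 of 1038 that rose (0.289%) and in 7 of 1136 that fell (0.616%). Among genes that rose at least 2-fold they were in 2 of 201 (0.995%), and no difference between these shares was tested. A match is a run of letters and not evidence of binding.

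The pyruvate carrier itself rose. Mpc1 had 245 and 266 CPM with MSDC, against 179.96 and 176 CPM with vehicle (log2 fold change 0.52 ± 0.06 (SE), adjusted p = 1.51e-05), and Mpc2 had 91.2 and 103 CPM with MSDC, against 23.4 and 24.7 CPM with vehicle (log2 fold change 2.01 ± 0.09 (SE), adjusted p = 1.55e-10). Both subunits were thus higher in both MSDC libraries, with a larger fold change for Mpc2. Pdk4, the kinase that switches off pyruvate dehydrogenase and a textbook PPAR target, was close to the floor in vehicle and had 11.5 and 10.5 CPM with MSDC, against 0.408 and 0.363 CPM with vehicle (log2 fold change 4.82 ± 0.27 (SE), adjusted p = 2.21e-09). Pdk1 rose by 0.33 but lost its call without MSDC replicate 1, Pdk2 did not pass the test (0.14), and Pdp1, the phosphatase that switches the complex back on, fell by 0.67. Other enzymes that make or use pyruvate rose. Pyruvate carboxylase (Pcx) had 42.8 and 45.4 CPM with MSDC, against 24.6 and 27.8 CPM with vehicle. Lactate dehydrogenase Ldha had 1037 and 1015 CPM with MSDC, against 671 and 709.8 CPM with vehicle. Malic enzyme Me1 had 3.96 and 3.41 CPM with MSDC, against 1.39 and 1.16 CPM with vehicle. The alanine transaminase Gpt2 had 37.97 and 39.7 CPM with MSDC, against 30.7 and 25.9 CPM with vehicle. The lactate carriers Slc16a1 (-0.07) and Slc16a3 (0.03) did not pass the test. In all, 12 of 27 tested pyruvate genes rose and 1 fell (median 0.17), with 7 rises without MSDC replicate 1 and 2 falls without vehicle replicate 2.

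Other central carbon lists had medians near 0. Of the glycolysis genes 45.8% were called, in both directions, against 23.5% of all genes tested. Of the TCA cycle genes 26.1% were called, close to the share of all genes. Of 24 glycolysis genes 6 rose and 5 fell (median -0.02), with 3 rises without MSDC replicate 1. Among the falls were the first-step kinase Hk2, at 44.4 and 45.1 CPM with MSDC, against 70.7 and 62.9 CPM with vehicle, the phosphofructokinase Pfkp (-0.65) and the hexose transporter Slc2a6, at 9.57 and 10.6 CPM with MSDC, against 37.3 and 36.3 CPM with vehicle. Aldoc (0.63) rose, as did Gapdh (0.22), which lost its call under both limma fits and without either MSDC library. Of 23 TCA cycle genes 4 rose and 2 fell, with no fall without MSDC replicate 1 and 1 without any other single library, and citrate synthase (Cs) did not pass the test at 376 and 362 CPM with MSDC, against 370.1 and 353 CPM with vehicle. The cytosolic NADP-linked isocitrate dehydrogenase Idh1 rose, at 331 and 303 CPM with MSDC, against 205 and 207 CPM with vehicle. Nuclear-encoded respiratory chain subunits had few called members. In all, 1 of 71 rose and 2 fell, which is 4.23% against 23.5% of all genes tested (median -0.06). The single rise was Atp5g1 (0.29) and the falls were Ndufb5 (-0.24) and Atp5o (-0.23), each lost without at least 1 library. Without vehicle replicate 1, 8 subunits fell, and without vehicle replicate 2, 3 rose and 1 fell. Of 38 ribosomal protein genes none rose or fell in edgeR's test (4 were lower at an unadjusted p under 0.05, 2 by DESeq2 and none by limma), while 14 fell without vehicle replicate 1, 2 fell without MSDC replicate 2 and 1 rose without vehicle replicate 2.

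The receptor genes Pparg, Ppard and Rxra were lower. Pparg had 114 and 111 CPM with MSDC, against 169.7 and 182 CPM with vehicle (log2 fold change -0.65 ± 0.06 (SE), adjusted p = 1.39e-06). Ppard had 97.8 and 95.6 CPM with MSDC, against 118 and 127 CPM with vehicle, a log2 fold change of -0.34, and Rxra had 309 and 299 CPM with MSDC, against 393 and 399 CPM with vehicle, a log2 fold change of -0.38. Ppara was in the table but did not reach the count filter. Of 23 receptors and coregulators 3 rose and 6 fell (median 0 to 2 decimals), with 1 rise without MSDC replicate 1, and the falls also held the coactivator Ppargc1b (-0.73), the vitamin D receptor Vdr (-0.86) and the retinoic acid receptor Rarg (-1.22). Nr1h3, which encodes LXRα, had 76.1 and 84.4 CPM with MSDC, against 66.7 and 70.3 CPM with vehicle, and did not pass the test.

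Cholesterol synthesis had the largest share of called members of any list described here, at 81.0%, with alveolar macrophage identity at 78.8%. The lists were chosen with earlier results of these data known, so this rank is no separate result. Of 21 enzymes 17 rose and none fell (median 0.69), with 18 higher and 0 lower at an unadjusted p under 0.05 and 17 higher under DESeq2 and both limma fits. Hmgcs1, the synthase that commits acetyl units to the pathway, had 189.6 and 176 CPM with MSDC, against 68.999 and 64.2 CPM with vehicle (log2 fold change 1.46 ± 0.08 (SE), adjusted p = 1.15e-09). The isomerase Idi1 (1.13) and the squalene synthase Fdft1 (1.09) each rose more than 2-fold. Ebp, the sterol isomerase, was at 74.2 and 74.2 CPM with MSDC, against 77.2 and 78.2 CPM with vehicle, and did not pass the test. Of 16 genes of SREBP control and sterol uptake 6 rose and 1 fell, with 3 rises without MSDC replicate 1, no fall without MSDC replicate 2 or vehicle replicate 1, and 3 falls without vehicle replicate 2. Insig1, which retains SREBP in the endoplasmic reticulum, had 179 and 174 CPM with MSDC, against 105 and 93.9 CPM with vehicle. Srebf2 had 250.3 and 241 CPM with MSDC, against 199.7 and 192 CPM with vehicle.

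Cholesterol efflux genes did not move as a block. Abca1, which loads cholesterol on apolipoprotein A-I, had 27.02 and 31.2 CPM with MSDC, against 129.7 and 85.5 CPM with vehicle (log2 fold change -1.89 ± 0.15 (SE), adjusted p = 1.17e-07). The vehicle libraries differed from each other by more than the level of either MSDC library, and both lay above the MSDC libraries. Abcg1, which loads mature HDL, went the other way at 1828 and 1812 CPM with MSDC, against 1441 and 1361 CPM with vehicle (log2 fold change 0.38 ± 0.05 (SE), adjusted p = 5.77e-05). The phospholipid transfer protein Pltp had 169.8 and 166 CPM with MSDC, against 19.02 and 20.7 CPM with vehicle. The acyltransferase Lpcat3 had 337 and 342 CPM with MSDC, against 189 and 176 CPM with vehicle. The small GTPase Arl4c, also a known LXR target, had 1.03 and 1.15 CPM with MSDC, against 15.7 and 15.7 CPM with vehicle. These are log2 fold changes of 3.08, 0.90 and -3.84, and 6 of 17 genes of this list rose while 3 fell. Fatty acid synthesis was also mixed, with 8 rises and 3 falls among 25 genes. Fasn, the synthase, had 552 and 539 CPM with MSDC, against 398 and 319 CPM with vehicle. Fads2, the delta-6 desaturase, had 12.2 and 11.8 CPM with MSDC, against 4.55 and 3.501 CPM with vehicle. The elongase Elovl6 fell, at 11.5 and 12.4 CPM with MSDC, against 31.8 and 29.9 CPM with vehicle, and the desaturase Scd1 did not pass the test at 128 and 122 CPM with MSDC, against 125 and 100.2 CPM with vehicle.

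Hmgcs1 is shown because it is the only 1 of the 16 cholesterol enzymes with a promoter in the table that held the sterol regulatory element letters TCACNCCAC, searched on both strands. The 150 bases before its start lie at chr13:119690201-119690350 on the plus strand, with the match in capitals.
Hmgcs1: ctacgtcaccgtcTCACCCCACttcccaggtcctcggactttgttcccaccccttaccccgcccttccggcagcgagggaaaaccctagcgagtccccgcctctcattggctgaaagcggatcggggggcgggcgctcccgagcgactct
Those letters were in 120 of 9379 tested genes (1.28%), in 22 of 1038 that rose (2.12%) and in 17 of 1136 that fell (1.5%). The CCAAT box, which NF-Y binds, was in 15 of the 16 cholesterol promoters (93.8%), in 43.7% of tested genes and in 46.0% of those that rose. It was also frequent in other lists, with 13 of 15 promoters of MHC class II genes (86.7%), where no gene rose. The shares were 71.4% for fatty acid uptake, 59.1% for peroxisomal oxidation and 40.5% for interferon-stimulated genes. No difference between these shares was tested.

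Genes that mark the alveolar macrophage went in both directions. Of 33 identity genes 16 rose and 10 fell (median 0.12), 78.8% of the list. Ear1, an eosinophil-associated ribonuclease, had 540.1 and 547 CPM with MSDC, against 38.8 and 40.4 CPM with vehicle (log2 fold change 3.78 ± 0.07 (SE), adjusted p = 1.06e-14), and Ear2 had 862 and 867 CPM with MSDC, against 319 and 331 CPM with vehicle. These are near-identical members of a gene cluster, so the split of reads between them is uncertain. Of 8 tested eosinophil-associated ribonucleases 2 rose and 4 fell (median -0.79). Rnase2a, from the same list, had 0.620 and 0.473 CPM with MSDC, against 7.30 and 6.18 CPM with vehicle (log2 fold change -3.62). Krt79, a keratin expressed by alveolar macrophages, had 97.2 and 91.5 CPM with MSDC, against 5.88 and 7.17 CPM with vehicle. Krt19 had 156 and 139.9 CPM with MSDC, against 20.9 and 24.8 CPM with vehicle, for log2 fold changes of 3.85 and 2.69. The scavenger receptor Marco, which binds inhaled particles and bacteria, had 1019 and 1054 CPM with MSDC, against 316 and 400.1 CPM with vehicle (log2 fold change 1.53 ± 0.09 (SE), adjusted p = 2.36e-09). In the other direction, the chitinase-like protein Chil3 had 3688 and 3647 CPM with MSDC, against 6365 and 6601 CPM with vehicle. The integrin Itgax (CD11c) had 1751 and 1738 CPM with MSDC, against 2418 and 2271 CPM with vehicle. The repressor Bhlhe40, which sustains self-renewal of these cells, had 406 and 401 CPM with MSDC, against 751 and 789 CPM with vehicle. Siglecf, the sialic acid receptor used to sort them, had 323 and 317 CPM with MSDC, against 325 and 321 CPM with vehicle, and did not pass the test, and neither did the GM-CSF receptor chains Csf2ra (-0.11) and Csf2rb (-0.08). Among junction genes outside that list, the anchoring filament protein Lad1 had 13.6 and 13.3 CPM with MSDC, against 0.238 and 0.231 CPM with vehicle. The tight junction protein Cldn1 had 86.9 and 76.6 CPM with MSDC, against 10.1 and 10.5 CPM with vehicle, while E-cadherin (Cdh1) was at 61.3 and 53.8 CPM with MSDC, against 73.99 and 70.04 CPM with vehicle, with a call lost without MSDC replicate 2.

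Feedback genes downstream of GM-CSF were lower. The STAT5-induced inhibitors Cish, at 44.6 and 45.05 CPM with MSDC, against 89.4 and 86.1 CPM with vehicle, and Socs2, at 17.8 and 17.4 CPM with MSDC, against 37.4 and 35.9 CPM with vehicle, fell by about 1 on the log2 scale (-0.97 and -1.06). Socs3 had 17.1 and 17.4 CPM with MSDC, against 57.1 and 55.3 CPM with vehicle (log2 fold change -1.70 ± 0.09 (SE), adjusted p = 7.93e-10), and Stat5a had 70.3 and 64.8 CPM with MSDC, against 83.7 and 92.96 CPM with vehicle. The kinase Pim3 was the exception, at 21.5 and 21.7 CPM with MSDC, against 7.58 and 7.199 CPM with vehicle. The receptor for M-CSF, Csf1r, had 228 and 205 CPM with MSDC, against 444 and 404 CPM with vehicle. Of 20 genes of this list 1 rose and 9 fell (median -0.24). Genes of alternative activation fell in 10 of 16 cases and rose in 2 (median -0.72), a list that shares Chil3 and Mrc1 with the identity list. The mannose receptor Mrc1 rose slightly, at 1464 and 1462 CPM with MSDC, against 1285 and 1057 CPM with vehicle.

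Receptors for chemoattractants split sharply, and 11 of 15 were called, 4 higher and 7 lower. C5ar1, the receptor for the complement fragment C5a, had 193 and 188 CPM with MSDC, against 2.24 and 2.31 CPM with vehicle (log2 fold change 6.38 ± 0.16 (SE), adjusted p = 1.88e-13). The vehicle libraries were close to each other. C5ar2, the second C5a receptor, which lies 2588 bases away at chr7:16234587-16244154, next to C5ar1 at chr7:16246743-16259540 (RefSeq, GRCm38.p6), had 11.3 and 10.7 CPM with MSDC, against 0.985 and 1.02 CPM with vehicle (log2 fold change 3.45 ± 0.19 (SE), adjusted p = 2.21e-09). The formyl peptide receptors Fpr1, at 129 and 119 CPM with MSDC, against 39.5 and 32.5 CPM with vehicle, and Fpr2, at 67.6 and 63.97 CPM with MSDC, against 44.2 and 30.4 CPM with vehicle, also rose. The receptor for C3a did the opposite. C3ar1 had 4.17 and 3.24 CPM with MSDC, against 20.9 and 14.96 CPM with vehicle (log2 fold change -2.27 ± 0.24 (SE), adjusted p = 2.74e-06). The chemerin receptor Cmklr1 had 1.96 and 1.93 CPM with MSDC, against 16.001 and 14.3 CPM with vehicle. The platelet-activating factor receptor Ptafr had 5.58 and 4.43 CPM with MSDC, against 22.2 and 18.4 CPM with vehicle. Cxcr4, the receptor for CXCL12, had 36.2 and 33.4 CPM with MSDC, against 82.2 and 72.7 CPM with vehicle. In all 3 of these receptors the groups were apart. Ccr2, the monocyte receptor for CCL2, had 1.101 and 0.676 CPM with MSDC, against 3.97 and 3.73 CPM with vehicle, and it is also counted among monocyte markers. Among complement components, factor B (Cfb) had 435 and 424 CPM with MSDC, against 242 and 252 CPM with vehicle. Properdin (Cfp) had 70.8 and 71.1 CPM with MSDC, against 244 and 262 CPM with vehicle, and C3 did not pass the test at 439 and 389 CPM with MSDC, against 432 and 454 CPM with vehicle.

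**Figure D3:**
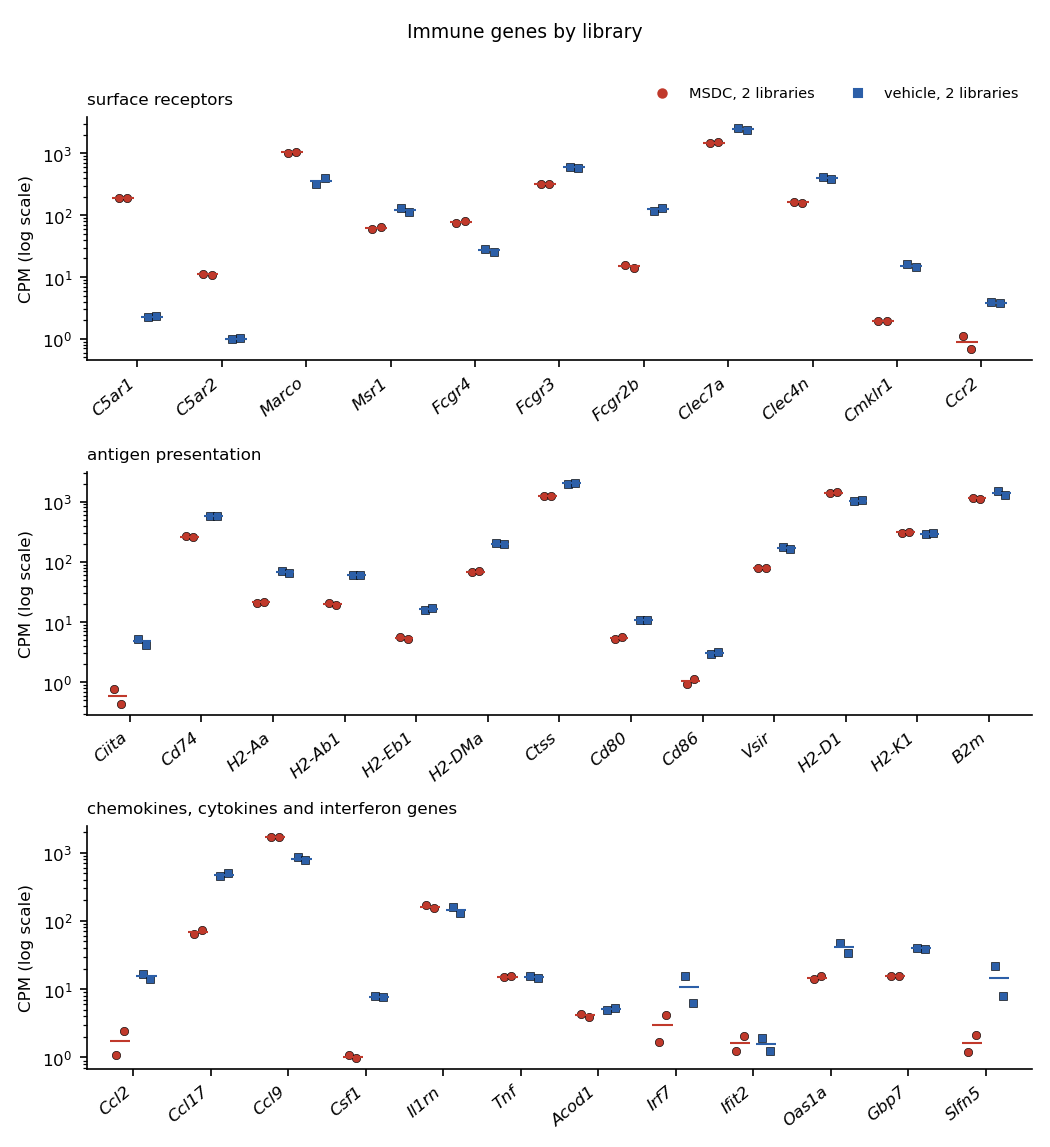
CPM on a log scale for surface receptors (top), antigen presentation (middle) and chemokines, cytokines and interferon genes (bottom), with a point for each of the 2 MSDC libraries (red circles, left) and 2 vehicle libraries (blue squares, right) and a line at the mean. C5ar1, C5ar2, Marco, Fcgr4, Ccl9 and H2-D1 are higher with MSDC, Il1rn, Tnf, Acod1, H2-K1 and Ifit2 did not pass the test, and the others are lower.

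Fc receptor genes moved in both directions, with 2 rises and 4 falls among 8 tested. Fcgr2b, the inhibitory receptor for IgG, had 15.9 and 14.2 CPM with MSDC, against 119 and 131 CPM with vehicle (log2 fold change -3.06 ± 0.12 (SE), adjusted p = 3.23e-11). Fcgr3 had 319 and 321 CPM with MSDC, against 599 and 584 CPM with vehicle. The high-affinity receptor Fcgr1 had 9.53 and 12.8 CPM with MSDC, against 23.7 and 22.4 CPM with vehicle. Both were lower, while Fcgr4 had 74.1 and 81.6 CPM with MSDC, against 28.7 and 25.3 CPM with vehicle, and was higher by 1.53 on the log2 scale. The shared signalling chain Fcer1g was at 933 and 988 CPM with MSDC, against 1376 and 1211 CPM with vehicle. The neonatal receptor Fcgrt, which recycles IgG, had 90.1 and 98.4 CPM with MSDC, against 45.5 and 53.04 CPM with vehicle. Reads shared among the homologous Fcgr genes could have been split by the counting.

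Pattern-recognition receptors were mostly lower. Among C-type lectins 11 of 17 fell and 1 rose (median -0.59), with 2 rises without MSDC replicate 2. Clec7a (Dectin-1), the receptor for fungal glucan, had 1461 and 1503 CPM with MSDC, against 2530.000 and 2388 CPM with vehicle. Clec4n (Dectin-2) had 162 and 159.6 CPM with MSDC, against 419 and 387 CPM with vehicle. Among Toll-like receptors and adaptors 12 of 23 fell and 3 rose (median -0.36), with 1 rise without MSDC replicate 1, without vehicle replicate 2 and in both limma fits. Tlr2, the lipoprotein receptor, had 168 and 168 CPM with MSDC, against 306 and 261 CPM with vehicle. Tlr7, a sensor of single-stranded RNA, had 161 and 148 CPM with MSDC, against 241 and 203 CPM with vehicle. Tlr4, the receptor for lipopolysaccharide, had 114 and 97.02 CPM with MSDC, against 149.9 and 124 CPM with vehicle, and its call was lost without MSDC replicate 2. The lipopolysaccharide co-receptor Cd14 had 6.37 and 6.66 CPM with MSDC, against 16.3 and 16.7 CPM with vehicle, and the pair Cd180 and Ly86, which form a complex on the surface, had log2 fold changes of -1.76 and -2.04. Tlr9, the sensor of CpG DNA, had 3 counts over both MSDC libraries and 96 over both vehicle libraries, a ratio of 0.0318 with a 95% exact counting interval of 0.00645 to 0.0958. The flagellin receptor Tlr5 rose from a low level, with 5.44 and 4.83 CPM with MSDC, against 1.39 and 1.35 CPM with vehicle. Scavenger receptors were divided, with 7 rises and 3 falls among 15, Msr1 being lower at 59.5 and 65.4 CPM with MSDC, against 131 and 114 CPM with vehicle, and Cd68 not called at 3068 and 3005 CPM with MSDC, against 2956 and 3082 CPM with vehicle. Of 15 genes of apoptotic cell clearance 2 rose and 6 fell, the receptor kinases being at 0.53 for Mertk, -0.69 for Axl and -3.03 for Tyro3 on the log2 scale, with Axl at 861 and 851 CPM with MSDC, against 1299 and 1459 CPM with vehicle.

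Genes of antigen presentation on MHC class II were lower. Of 17 genes tested 11 fell and none rose (median -0.70), at an unadjusted p under 0.05 the counts were the same, and DESeq2 gave 11 and both limma fits 10. Ciita, the transactivator that switches the class II genes on, had 0.757 and 0.439 CPM with MSDC, against 5.27 and 4.23 CPM with vehicle (log2 fold change -2.98 ± 0.34 (SE), adjusted p = 6.29e-06). The chains of the molecules themselves were also lower, with smaller fold changes than Ciita. H2-Aa had 20.9 and 21.4 CPM with MSDC, against 69.4 and 64.8 CPM with vehicle. H2-Ab1 had 20.5 and 19.5 CPM with MSDC, against 60.7 and 61.3 CPM with vehicle. H2-Eb1 had 5.61 and 5.14 CPM with MSDC, against 16.1 and 17.04 CPM with vehicle. The invariant chain Cd74 had 264 and 263 CPM with MSDC, against 572 and 578 CPM with vehicle (log2 fold change -1.13 ± 0.06 (SE), adjusted p = 5.4e-10). H2-DMa, which loads peptide, had 67.5 and 69.6 CPM with MSDC, against 208 and 195 CPM with vehicle. Cathepsin S (Ctss), which trims the invariant chain, had 1237 and 1261 CPM with MSDC, against 1998 and 2056 CPM with vehicle. The factor Rfx5, which Ciita needs at the promoters, was at 9.29 and 8.96 CPM with MSDC, against 9.17 and 7.96 CPM with vehicle, and did not pass the test. Dendritic cell markers were also lower, with sums of 17.7 and 20.1 CPM with MSDC, against 57.0 and 48.0 CPM with vehicle. The part of dendritic cells in the class II falls was not tested.

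Class I genes gave 10 falls and 1 rise among 21 (median -0.31), with 2 rises without MSDC replicate 1. The rise was H2-D1, at 1389.5 and 1427 CPM with MSDC, against 1024 and 1048 CPM with vehicle. H2-K1 had 302 and 315 CPM with MSDC, against 294 and 296 CPM with vehicle, and did not pass the test. Nlrc5, the class I transactivator, had 3.48 and 5.204 CPM with MSDC, against 12.3 and 10.2 CPM with vehicle. The peptide transporter Tap1 had 25.4 and 23.9 CPM with MSDC, against 42.2 and 39.5 CPM with vehicle. B2m had 1169.8 and 1101 CPM with MSDC, against 1523 and 1290.2 CPM with vehicle, and its call was lost without MSDC replicate 2. Because H2 genes are similar in sequence, the split of reads among them is uncertain. Of 17 costimulatory and checkpoint genes 11 fell and 1 rose (median -0.74), and the rise was lost without either MSDC library or vehicle replicate 1. Cd80 had 5.198 and 5.68 CPM with MSDC, against 10.97 and 10.9 CPM with vehicle. Cd86 had 0.929 and 1.15 CPM with MSDC, against 2.89 and 3.203 CPM with vehicle. The inhibitory ligand Vsir (VISTA) had 78.6 and 78.1 CPM with MSDC, against 178 and 164 CPM with vehicle. Galectin-9 (Lgals9) had 21.5 and 23.8 CPM with MSDC, against 109.97 and 93.9 CPM with vehicle. Cd274, which encodes PD-L1, had 114 and 117 CPM with MSDC, against 129.98 and 112 CPM with vehicle, and did not pass the test.

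Of 10 CC chemokines 5 fell and 1 rose (median -1.04). Of 7 CXC chemokines 2 fell and none rose in edgeR's test (median 0.30). The counts were the same at an unadjusted p under 0.05, by DESeq2 and by limma. The share of CXC chemokines called, 28.6%, was not far from the 23.5% of all genes tested. Ccl2, which draws monocytes, had 1.07 and 2.399 CPM with MSDC, against 16.7 and 14.2 CPM with vehicle (log2 fold change -3.15 ± 0.20 (SE), adjusted p = 8.37e-09), and its log2 fold change was -3.86 without MSDC replicate 2. Ccl17, a ligand of CCR4, had 64.02 and 73.2 CPM with MSDC, against 447 and 505 CPM with vehicle (log2 fold change -2.80 ± 0.10 (SE), adjusted p = 1.02e-11). Ccl3 had 141 and 135 CPM with MSDC, against 366 and 316 CPM with vehicle. Ccl4 had 3.61 and 4.73 CPM with MSDC, against 15.97 and 13.2 CPM with vehicle. Ccl9 was the rise, at 1683 and 1667 CPM with MSDC, against 848 and 769.7 CPM with vehicle, and the very abundant Ccl6 did not pass the test at 13440.2 and 13315 CPM with MSDC, against 14761 and 12890.5 CPM with vehicle. Cxcl16 fell, at 1.38 and 1.86 CPM with MSDC, against 7.71 and 7.66 CPM with vehicle.

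Cytokine genes gave 3 rises and 6 falls among 20 tested. Csf1, which encodes M-CSF, had 1.07 and 0.979999 CPM with MSDC, against 7.92 and 7.63 CPM with vehicle (log2 fold change -2.92 ± 0.21 (SE), adjusted p = 4.11e-08), and Hbegf had 1.38 and 1.45 CPM with MSDC, against 6.59 and 5.51 CPM with vehicle. Spp1 (osteopontin) had 1195 and 1227 CPM with MSDC, against 1701 and 1869 CPM with vehicle. Il18 (0.75), Il1a (0.36) and Lif, at 2.31 and 1.79 CPM with MSDC, against 0.204 and 0.231 CPM with vehicle, rose. Tnf had 15.04 and 15.6 CPM with MSDC, against 15.8 and 14.8 CPM with vehicle. The IL-1 antagonist Il1rn had 168 and 154 CPM with MSDC, against 158 and 129.9 CPM with vehicle. Acod1, the itaconate-producing enzyme, had 4.37 and 3.89 CPM with MSDC, against 5.03 and 5.32 CPM with vehicle. None of these 3 passed the test. Il1b was low, at 2.99 and 2.23 CPM with MSDC, against 4.45 and 3.96 CPM with vehicle, and its call was lost without MSDC replicate 2 and without vehicle replicate 1. Of 16 genes of IL-1 receptors and the inflammasome 5 rose and 7 fell, with 4 falls without MSDC replicate 1, MSDC replicate 2 or vehicle replicate 1. The cell death protease Casp8 had 296 and 294 CPM with MSDC, against 119.5 and 122 CPM with vehicle. Among NF-kB subunits and feedback genes 5 rose and 4 fell of 22, with 3 rises without MSDC replicate 1 and 2 without MSDC replicate 2, and the inhibitor Nfkbia had 69.9 and 72.96 CPM with MSDC, against 47.9 and 40.3 CPM with vehicle.

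Interferon-stimulated genes were lower without any added stimulus, but for several of them the libraries differed within both groups. Of 47 tested 30 fell and none rose (median -0.69), 26 fell by DESeq2 and 28 and 27 by limma, 19 fell and 2 rose without MSDC replicate 1, and 23 fell without vehicle replicate 1 (at an unadjusted p under 0.05, 32 were lower and 1 higher). Gbp7, an interferon-induced GTPase, had 15.6 and 15.3 CPM with MSDC, against 40.3 and 39.1 CPM with vehicle (log2 fold change -1.36 ± 0.07 (SE), adjusted p = 1.48e-09), with libraries of each group close together. Oas1a, a sensor that makes 2'-5' oligoadenylate, had 14.1 and 15.5 CPM with MSDC, against 48.1 and 33.6 CPM with vehicle (log2 fold change -1.46 ± 0.13 (SE), adjusted p = 3.9e-07). Ifi204 had 3.098 and 3.75 CPM with MSDC, against 18.8 and 13.3 CPM with vehicle. Ifih1, the cytosolic sensor of long double-stranded RNA, had 24.3 and 22.2 CPM with MSDC, against 35.7 and 29.1 CPM with vehicle. For several genes vehicle replicate 1 was far above vehicle replicate 2, and MSDC replicate 2 was above MSDC replicate 1. Slfn5 had 1.205 and 2.095 CPM with MSDC, against 21.7 and 7.86 CPM with vehicle, and its log2 fold change of -3.15 became -2.25 without vehicle replicate 1. Rtp4 had 0.0688 and 1.55 CPM with MSDC, against 11.2 and 3.401 CPM with vehicle, with log2 fold changes from -6.66 to -2.05 as each library was left out in turn, and its call was lost under DESeq2. Oas3 had 0.6196 and 3.38 CPM with MSDC, against 13.2 and 3.798 CPM with vehicle, and was not called under DESeq2, without vehicle replicate 1 or without MSDC replicate 1. Isg15, at 0.688 and 1.52 CPM with MSDC, against 2.31 and 1.29 CPM with vehicle, and Ifit2, at 1.24 and 2.06 CPM with MSDC, against 1.902 and 1.25 CPM with vehicle, overlapped between the groups and did not pass the test.

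IRF and STAT factors, interferon receptors and their kinases fell in 13 of 21 cases and rose in none (14 and 0 at an unadjusted p under 0.05; 12 and 0 by DESeq2, 14 and 0 by limma). Irf5 had 32.2 and 32.6 CPM with MSDC, against 146 and 136 CPM with vehicle (log2 fold change -2.12 ± 0.07 (SE), adjusted p = 7.38e-12) and Irf4 had 4.58 and 4.90000 CPM with MSDC, against 37.9 and 30.6 CPM with vehicle (log2 fold change -2.85 ± 0.13 (SE), adjusted p = 3.31e-10). Irf7, the amplifier of type I interferon, had 1.69 and 4.22 CPM with MSDC, against 15.5 and 6.24 CPM with vehicle, and its log2 fold change of -1.87 was -1.07 without vehicle replicate 1 and -2.70 without MSDC replicate 2. Irf9 had 11.7 and 14.4 CPM with MSDC, against 35.4 and 25.2 CPM with vehicle. Irf8 had 43.4 and 40.6 CPM with MSDC, against 69.9 and 72.7 CPM with vehicle. Stat2 had 38.9 and 37.9 CPM with MSDC, against 60.1 and 49.5 CPM with vehicle. Irf1 (-0.07) and Irf3 (-0.05) did not pass the test. Irf4 is also counted among dendritic cell markers, and it made up most of that list's sum in the vehicle libraries but not in the MSDC libraries.

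Gbp7 and Oas1a are shown because both fell, both are named again in the comparison with Poly(I:C), and both hold the interferon-stimulated response element core, searched as GAAANNGAAA on either strand. The 150 bases before each start lie at chr3:142530186-142530335 on the plus strand for Gbp7 and at chr5:120907526-120907675 on the minus strand for Oas1a. Matches are in capitals, and Oas1a holds 2 overlapping ones.
Gbp7: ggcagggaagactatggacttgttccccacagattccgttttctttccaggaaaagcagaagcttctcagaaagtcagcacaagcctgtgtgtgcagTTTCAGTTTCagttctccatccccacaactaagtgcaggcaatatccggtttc
Oas1a: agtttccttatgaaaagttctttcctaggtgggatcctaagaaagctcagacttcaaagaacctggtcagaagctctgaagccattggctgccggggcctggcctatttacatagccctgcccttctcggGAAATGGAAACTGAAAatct
The core was in 373 of 9379 tested genes (3.98%), in 38 of 1038 that rose (3.66%) and in 83 of 1136 that fell (7.31%). Among genes that fell at least 2-fold it was in 32 of 281 (11.4%), and among genes that fell outside the interferon list in 67 of 1114 (6.01%). Of 37 interferon-stimulated genes that had a promoter entry, 23 held it (62.2%). These shares are descriptions of letters in these windows.

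Genes that remodel matrix fell. Of 19 proteases, inhibitors and related enzymes 12 fell and none rose (median -1.02; the same counts at an unadjusted p under 0.05, by DESeq2 and by limma). Mmp12, the macrophage elastase, was among the most abundant transcripts in vehicle and had 622 and 587 CPM with MSDC, against 4777 and 4165 CPM with vehicle (log2 fold change -2.89 ± 0.08 (SE), adjusted p = 5.73e-13). Mmp8 had 4.096 and 6.22 CPM with MSDC, against 33.6 and 29.2 CPM with vehicle. Mmp14 had 7.13 and 7.198 CPM with MSDC, against 23.95 and 28.99 CPM with vehicle. The inhibitor Timp2 had 27.4 and 30.2 CPM with MSDC, against 81.8 and 75.1 CPM with vehicle. Mmp8 also made up most of the neutrophil marker sum in the vehicle libraries but not in the MSDC libraries. Heparanase (Hpse) had 0.792 and 0.676 CPM with MSDC, against 8.36 and 8.06 CPM with vehicle. Cathepsin K (Ctsk), a collagen-degrading protease, had 889 and 881 CPM with MSDC, against 1391 and 1432 CPM with vehicle. Cathepsin B (Ctsb) did not pass the test at 5423 and 5424 CPM with MSDC, against 5331 and 5077 CPM with vehicle.

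Eicosanoid enzymes changed in both directions, with 4 rises and 6 falls among 16. Ptges, the inducible prostaglandin E synthase, had 32.7 and 29.03 CPM with MSDC, against 7.75 and 7.23 CPM with vehicle. The prostaglandin D synthase Hpgds had 25.1 and 21.8 CPM with MSDC, against 6.25 and 5.94 CPM with vehicle. The leukotriene C4 synthase Ltc4s had 89.1 and 99.99 CPM with MSDC, against 40.2 and 38.9 CPM with vehicle. Other enzymes were lower. Ptgs1 (COX-1) had 2.72 and 2.74 CPM with MSDC, against 8.12 and 7.298 CPM with vehicle. 5-lipoxygenase (Alox5) had 143 and 138 CPM with MSDC, against 163 and 186 CPM with vehicle. Its activating protein Alox5ap had 152 and 155 CPM with MSDC, against 219.8 and 209.8 CPM with vehicle. The call of Alox5 was lost without MSDC replicate 2. The prostacyclin synthase Ptgis had 0.0344 and 0.338 CPM with MSDC, against 0.985 and 1.06 CPM with vehicle (log2 fold change -2.42), and its call was lost without MSDC replicate 1.

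Stress and growth lists were mixed. Of the mitochondrial Slc25 carriers, given last, 25.6% were called, close to the 23.5% of all genes tested. NRF2 itself (Nfe2l2) had 197 and 198 CPM with MSDC, against 342 and 353 CPM with vehicle, while 10 of 29 of its targets and antioxidant genes rose and 7 fell, 4 without MSDC replicate 2. The cystine carrier Slc7a11 had 74.3 and 71.6 CPM with MSDC, against 169 and 125 CPM with vehicle. The membrane glutathione transferase Mgst1 had 306 and 297 CPM with MSDC, against 161 and 149.8 CPM with vehicle. In the integrated stress response 7 of 21 rose and 3 fell, with 4 rises without MSDC replicate 2. Gdf15, a secreted stress hormone, had 83.7 and 91.1 CPM with MSDC, against 28.5 and 29.8 CPM with vehicle. The serine synthesis enzyme Psat1 had 228 and 237 CPM with MSDC, against 141 and 129.8 CPM with vehicle, and the stress factor Ddit3 did not pass the test at 8.92 and 7.67 CPM with MSDC, against 9.003 and 11.2 CPM with vehicle. In the unfolded protein response 2 of 18 rose and 9 fell, with 1 rise and 5 falls without MSDC replicate 2, and the chaperone Hspa5 was not called at 951 and 915 CPM with MSDC, against 992 and 1108 CPM with vehicle. Of 17 HIF-1 targets 6 rose and 2 fell, with 1 rise without MSDC replicate 1, and Hif1a had 148 and 144 CPM with MSDC, against 157 and 146 CPM with vehicle, and did not pass the test. Of 39 lysosomal genes 9 rose and 11 fell, with 4 and 7 without MSDC replicate 1 and 2 and 7 without MSDC replicate 2. Of 40 cell cycle genes 12 rose and 5 fell, with 4 of each without either MSDC library. Ccnd2, a cyclin of G1, had 499.7 and 444 CPM with MSDC, against 286 and 243 CPM with vehicle. Ccnd3, another G1 cyclin, had 101 and 103 CPM with MSDC, against 187 and 184 CPM with vehicle and fell, and the proliferation marker Mki67, at 639 and 629 CPM with MSDC, against 589.6 and 535 CPM with vehicle, did not pass the test. Of 39 mitochondrial Slc25 carriers 5 rose and 5 fell, with 2 of each without either MSDC library, 2 falls without vehicle replicate 1 and 3 of each without vehicle replicate 2.

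**Figure D4:**
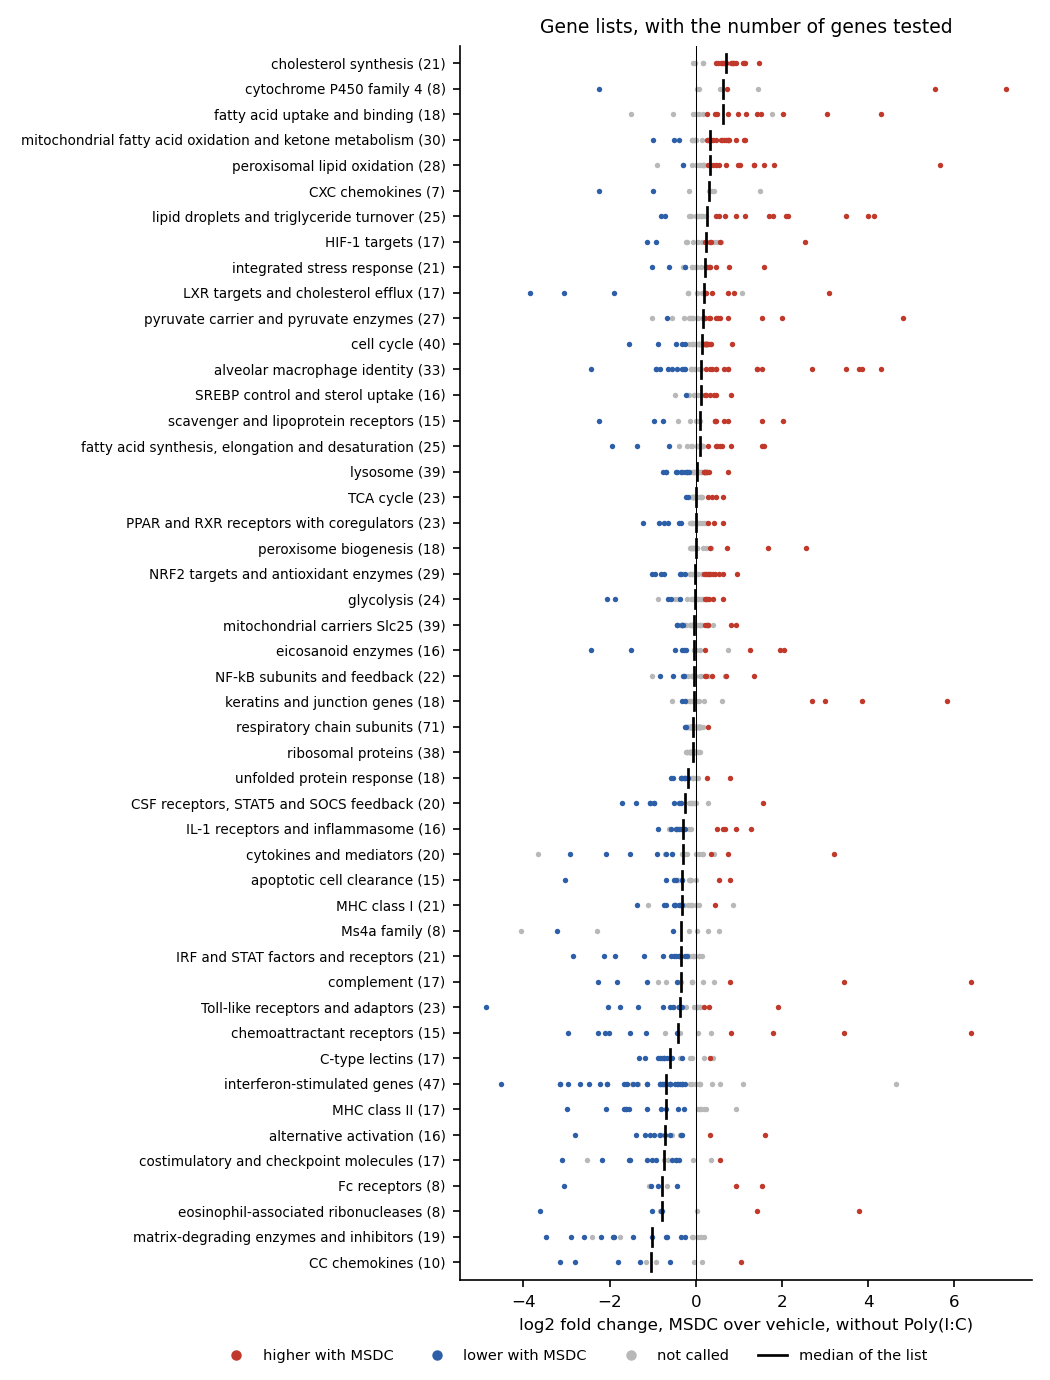
Log2 fold change of MSDC over vehicle (x) for every tested gene of the 48 gene lists (rows, number tested in brackets, ordered by median), with rises in red, falls in blue, genes not called in grey and a black line at the median. Cholesterol synthesis, with a median of 0.69 and 17 rises, is at the top, and CC chemokines, with a median of -1.04, at the bottom.

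The effect was set beside that of MSDC in the Poly(I:C)-stimulated cells, which were measured in 4 other libraries. There MSDC changed 3036 genes (26.1%), 1450 higher (12.5%) and 1586 lower (13.6%). Of the 2733 genes called without Poly(I:C), 2680 (98.1%) had the same sign with it, and 2110 were called in both with the same sign, which is 77.2% of the list without and 69.5% of the list with Poly(I:C), while 4 were called with opposite signs. Across all tested genes the log2 fold changes had a Pearson r of 0.744 and a Spearman rho of 0.692, as a description over genes, which are not independent replicates. C5ar1, for example, had 168 and 176 CPM with MSDC and 0.9005 and 2.32 CPM with vehicle under Poly(I:C), and Plin2 had 2706 and 2833 CPM with MSDC and 711 and 709.8 CPM with vehicle under Poly(I:C). The 2 effects were not called different in either gene, with differences (with minus without Poly(I:C)) of 0.35 ± 0.29 (SE), adjusted p = 0.915 and -0.18 ± 0.08 (SE), adjusted p = 0.761.

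A test of the difference between the effects (the interaction) called 26 genes (0.224% of genes tested), 14 higher (0.12%) and 12 lower (0.103%), and 755 at an unadjusted p under 0.05. Of the 26, 8 were on the interferon-stimulated list, and 21 had been called without Poly(I:C). For most of the interferon genes named, MSDC lowered the transcript less with Poly(I:C) than without. Gbp7 had 97.1 and 96.8 CPM with MSDC and 121 and 123 CPM with vehicle under Poly(I:C), so that its log2 fold change was -0.33, against -1.36 without Poly(I:C) (difference 1.03 ± 0.10 (SE), adjusted p = 0.000158). Lgals9 had 188 and 186 CPM with MSDC and 384 and 427 CPM with vehicle under Poly(I:C) (difference 1.05 ± 0.12 (SE), adjusted p = 0.000621). Ifi27 changed sign, with 38.4 and 38.5 CPM with MSDC and 20.6 and 16.5 CPM with vehicle under Poly(I:C) (difference 1.87 ± 0.19 (SE), adjusted p = 0.000354). In the other direction, Acod1 did not pass the test without Poly(I:C) and had 20.98 and 19.6 CPM with MSDC and 79.1 and 68.4 CPM with vehicle under Poly(I:C) (difference -1.54 ± 0.17 (SE), adjusted p = 0.000621). Cfb, higher with MSDC in unstimulated cells, had 1035 and 1051 CPM with MSDC and 1118 and 1048 CPM with vehicle under Poly(I:C) (difference -0.85 ± 0.08 (SE), adjusted p = 0.000158), and H2-K1 had 595 and 608 CPM with MSDC and 784 and 774 CPM with vehicle under Poly(I:C) (difference -0.44 ± 0.08 (SE), adjusted p = 0.0319). The counts moved with single libraries. Of the unstimulated libraries, leaving out MSDC replicate 1 gave 3 higher and 2 lower genes, MSDC replicate 2 gave 17 and 3, vehicle replicate 1 gave 25 and 39, and vehicle replicate 2 gave 62 and 30. Of the Poly(I:C) libraries, leaving out MSDC replicate 1 gave 5 and 3, MSDC replicate 2 gave 4 and 2, vehicle replicate 1 gave 10 and 3, and vehicle replicate 2 gave 12 and 4. Acod1, Cfb, Gbp7, Ifi27 and Lgals9 kept this call under every alternative run for the interaction.

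**Figure D5:**
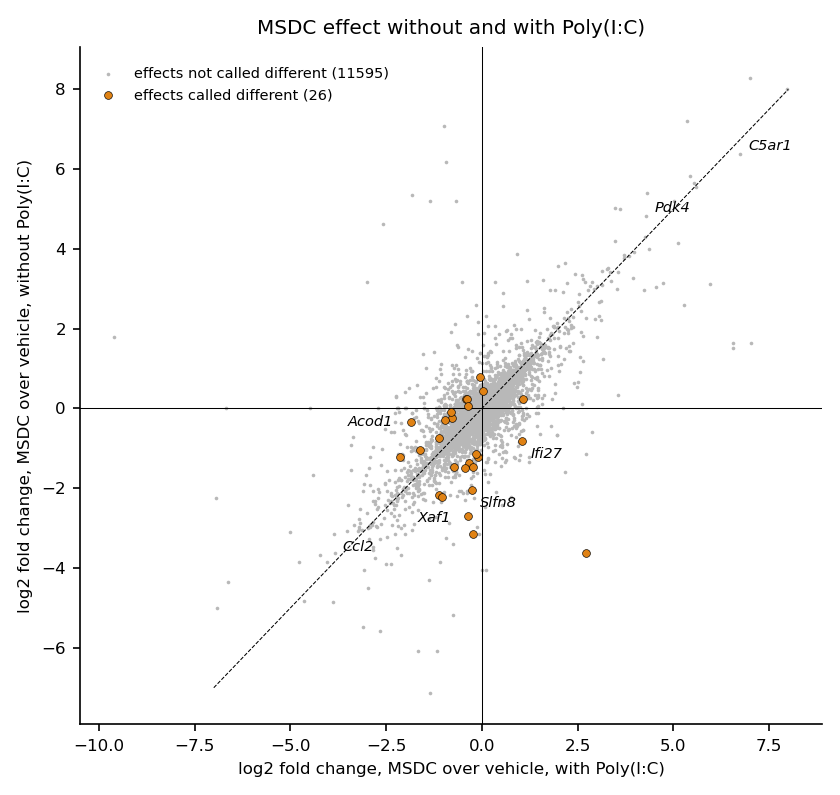
Log2 fold change of MSDC over vehicle with Poly(I:C) (x) against that without Poly(I:C) (y) for the 11621 genes tested, with the 26 genes whose effects were called different in orange and a dashed line where both are equal. C5ar1, Pdk4 and Ccl2 lie near the line, and the interferon genes Xaf1 and Slfn8 lie below it.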

How the data were processed

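Mouse alveolar macrophage RNA was sequenced in 8 bulk samples. Reads were handled with TopHat2 2.1.1, Bowtie2 2.3.4 and Cuffdiff, per the submitters' processing notes, on GRCm38 (mm10). The deposited table held estimated counts, FPKM and TPM per gene for each sample, made by the authors, and 5.95% to 7.19% of the estimated counts were not whole, so these were rounded. The deposited FPKM values served only for limma (pseudocounts 0.1 and 1), and the deposited TPM values were used for no test. Which tool made the counts is not stated. Of 15521 genes, 11621 passed edgeR's filterByExpr. All 8 libraries in 4 groups were fitted with TMM scaling and glmQLFTest (edgeR 4.0.16, R 4.3.3; limma 3.58.1, DESeq2 1.42.0 as alternatives), with Benjamini-Hochberg adjustment and a threshold of 0.05. SE is the absolute log2 fold change divided by the square root of F. In simulated data (11621 genes, 200 changed) the fit recovered 85.1%, 85.1% and 98.5% of changes of 1.5-, 2- and 4-fold, with 16 unchanged genes called.

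Named genes were the 20 largest rises and 20 largest falls at 5 CPM or more in the higher group. These were taken only from called genes whose groups did not overlap, without predicted genes. The rule also named the 10 largest gains and losses in CPM, per list up to 6 called and 2 not called, 8 per direction of the interaction and a fixed set. These list members fall outside that rule and were chosen after their values were seen: Fabp5, Dbi, G0s2, Hilpda, Lipe, Mgll, Acaa1a, Acot4, Cat, Acadm, Acat1, Bdh1, Pdk2, Slc16a1, Pdp1, Gpt2, Cs, Nr1h3, Idi1, Scd1, Fasn, Mrc1, Csf2ra, Csf2rb, Fpr2, C3, Tlr4, Tlr7, Tlr9, B2m, Cd86, Il1rn, Stat2, Stat5a, Oas3, Ifih1, Isg15, Ifit2, Ctsb, Ptgis, Alox5, Ddit3 and Hspa5. Members and lists were chosen with earlier results of these data known. Sequences and positions are from RefSeq (GRCm38.p6), and 15419 gene IDs (99.3%) matched. Same-numbered samples deviated together with correlations of -0.0287 to 0.0396, so the numbers were not taken as pairs. Counting intervals and floors are 95% exact and cover counting error only.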

Additional observations from a re-analysis of the deposited data

Results flagged for a closer look

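The effect of MSDC with and without Poly(I:C) was called different in 26 genes by the interaction term of edgeR's quasi-likelihood test, and the 8 in each direction with the smallest p are given here as the log2 fold change with Poly(I:C) minus that without. It was positive for Ifi27 (1.87), Lgals9 (1.05), Gbp7 (1.03), Oas1a (1.23), Xaf1 (2.33), Slfn8 (1.79), Ifi204 (1.19) and Gm14308 (6.33). Xaf1, an interferon-induced gene, had 0.551 and 0.676 CPM with MSDC, against 5.23 and 2.77 CPM with vehicle, without Poly(I:C), and 43.4 and 44.9 CPM with MSDC and 55.7 and 57.998 CPM with vehicle under Poly(I:C). Gm14308, a predicted gene, had 0.138 and 0.811 CPM with MSDC, against 7.51 and 4.39 CPM with vehicle, without Poly(I:C), and 6.65 and 6.64 CPM with MSDC and 0 and 2.04 CPM with vehicle under Poly(I:C), and since libraries of it were at or near 0 its fitted difference is no bound. It was negative for Acod1 (-1.54), Cfb (-0.85), Ass1 (-0.58), Selenow (-0.66), H2-D1 (-0.43), H2-K1 (-0.44), Sema4d (-0.94) and Junb (-0.55). Ass1, the argininosuccinate synthase, fell in both settings, at 127 and 121 CPM with MSDC, against 244 and 262 CPM with vehicle, without Poly(I:C) and 179 and 173 CPM with MSDC and 534 and 540.1 CPM with vehicle under Poly(I:C). Similar sequences among Gbp, Slfn, Oas1, Ifi200 and H2 genes could have been split by the counting.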

How the results depend on the processing

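Of 318 tested genes chosen for print, 272 were called, 234 kept the call under all 12 alternatives, 38 lost it in at least 1, and none changed sign while called. The naming rule gave 409 genes, so these counts do not cover all of them. Leaving out an MSDC library lost the most calls, 21 without replicate 1 and 24 without replicate 2, against 9 and 6 without vehicle replicates 1 and 2; the cause was not tested, and each such fit has fewer samples. The number of rises without Poly(I:C) was 1293, and ranged from 819 to 1330 when 1 library was left out; falls were 1440 and ranged from 1016 to 1559. With Poly(I:C) the ranges were 1027 to 1145 rises and 1126 to 1243 falls. RLE scaling, DESeq2, limma, no filter and the 4 libraries alone kept these 4 counts within 1.5 times. Scaling by library totals gave 1115 rises and 1637 falls.

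The interaction counts were the least stable. From 14 higher and 12 lower, they were 64 and 52 with no filter, 23 and 25 by DESeq2, 3 and 4 by limma on log2(FPKM + 0.1) and 6 and 24 by limma on log2(FPKM + 1); library totals gave 4 lower. Leaving out 1 library gave 3 to 62 higher and 2 to 39 lower. Fitting the replicate number as a block, which the correlations did not show to pair the samples, gave 1232 rises and 1389 falls without Poly(I:C), 1406 and 1535 with it, and 16 and 8 interaction genes. The 3-count floor of 0.102 to 0.104 CPM limits genes nearly absent in a group, such as Cyp4a12b and Tlr9. Ptgis (-1.59) and Egln3 (1.66) lost their calls without MSDC replicate 1, against -2.42 and 2.53 with all libraries. Cd244a was at -3.87 without MSDC replicate 2.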

Other observations

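The largest changes in absolute level were in abundant transcripts. The largest gain was in Ftl1, the ferritin light chain, with 23149 and 25002 CPM with MSDC, against 17032 and 18067 CPM with vehicle, followed by the lysosomal protease Ctsd with 16963 and 17259 CPM with MSDC, against 13251 and 14213 CPM with vehicle. Both calls were lost in at least 1 limma fit, as was that of Actb, at 8645 and 8496 CPM with MSDC, against 7276 and 7408 CPM with vehicle, which was also lost without either MSDC library. The sorting receptor Sort1 had 2206 and 2175 CPM with MSDC, against 1112 and 1006 CPM with vehicle, and the cytoskeletal Septin9 had 1271 and 1283 CPM with MSDC, against 560.4 and 599 CPM with vehicle, both with calls in all alternatives. Next to Mmp12, the largest losses were in lysozyme (Lyz2), at 16122 and 16217 CPM with MSDC, against 19151 and 19662 CPM with vehicle, and Chil3. The call of Lyz2 was lost in both limma fits. Naaa, the lysosomal amidase of palmitoylethanolamide, had 309 and 309 CPM with MSDC, against 848 and 869 CPM with vehicle, and cathepsin C (Ctsc) had 879 and 832 CPM with MSDC, against 1421 and 1371 CPM with vehicle. Summed over called genes, the gains came to 76739 CPM and the change in genes that fell to -55840 CPM.

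Several of the 20 largest rises stood on none of the lists. Pitpnm2, of the phosphatidylinositol transfer protein family, had 71.5 and 76.4 CPM with MSDC, against 1.63 and 2.41 CPM with vehicle (log2 fold change 5.19 ± 0.13 (SE), adjusted p = 1.88e-13). The adaptor Grb7 had 45.5 and 42.6 CPM with MSDC, against 4.65 and 3.53 CPM with vehicle. Epor, the erythropoietin receptor, had 12.9 and 13.6 CPM with MSDC, against 0.883 and 0.859 CPM with vehicle. Among the 20 largest falls, Qpct, the glutaminyl cyclase that modifies chemokines such as CCL2, had 9.88 and 7.401 CPM with MSDC, against 70.6 and 66.7 CPM with vehicle (log2 fold change -2.99 ± 0.11 (SE), adjusted p = 1.38e-11). Tent5c had 2.93 and 2.97 CPM with MSDC, against 25.6 and 23.1 CPM with vehicle, the actin-associated Synpo had 2.82 and 2.03 CPM with MSDC, against 18.8 and 18.9 CPM with vehicle, and Dcstamp, known for the fusion of osteoclast precursors, had 2.34 and 2.57 CPM with MSDC, against 20.7 and 16.97 CPM with vehicle. The rule that named these 7 genes required that their groups did not overlap, so their separation is no separate result.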
